A study of Mus musculus with 9 samples.

Results

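The comparison set a pair of short hairpin RNAs against each other that were made to silence the same gene, Csnk1a1, in mouse leukemia stem cells. Its members are 6 of the 9 arrays of the series, chosen by their sample titles: 3 arrays of cells with hairpin 94 (replicates 1 to 3) and 3 arrays of cells with hairpin 97 (replicates 4 to 6). The remaining 3 arrays came from cells with a control hairpin against luciferase (Luc) and are used here only to place levels. All 9 samples were leukemia stem cells from the bone marrow of C57BL/6 mice of the Actin-dsRed genotype that carried a quaternary transplant of leukemia driven by the MLL-AF9 oncogene. Per the labels they were gated as Hoechst low, dsRed+, c-kit hi, CD34+ and FcyRII hi. The labels give no age, no time after the hairpin was introduced and no hairpin vector, and do not say whether replicates came from separate mice or cultures, so each p-value measures the spread between these samples, which may be technical. RNA was isolated with Trizol and hybridised with a biotin label to Illumina bead arrays, on which beads carry probes for known transcripts.

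Csnk1a1 encodes casein kinase 1 alpha, a serine and threonine kinase. It marks beta-catenin for degradation, and it acts with the MDM proteins to hold p53 in check, so its loss is known to raise both pathways in blood-forming cells. MLL-AF9 is a fusion of a chromatin regulator with a transcriptional elongation factor that keeps myeloid progenitors dividing in place of maturing. A hairpin RNA is processed to a short guide strand that directs the cleavage of a matching messenger RNA. A guide can also lower other transcripts through its seed, and hairpins against 1 gene can differ in how far they lower it, which is why studies of this kind use more than 1.

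Of 45281 probes, 12916 had a detection p under 0.05 on at least 3 of the 6 arrays, and 11142 of these named a single gene and were tested, for 7639 genes. Values are normalized log2 signals, and a difference is hairpin 97 minus hairpin 94, so a negative value is a higher signal with hairpin 94. Detected probes per array numbered 13507 ± 673 with hairpin 94 and 13544 ± 601 with hairpin 97 (SD, n = 3 each), a difference of 37.7 probes (two-sided exact permutation p = 1, where 20 splits allow no p below 0.1). Pairs of arrays correlated across probes with Pearson's r of 0.979 to 0.985 within hairpin 94, 0.986 to 0.988 within hairpin 97 and 0.969 to 0.988 between the hairpins, and probes are not independent replicates. Hairpin 94 replicate 3 stood farthest from the hairpin 97 arrays, at 0.969 to 0.975, and hairpin 94 replicate 2 correlated better with hairpin 97 replicate 4 (0.988) than with either array of its own group (0.985 and 0.981). Results that rest on these libraries are given without them below.

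The targeted gene gave no check of the labels. Its single probe had no array with a detection p under 0.05, and the detection p ran from 0.307 to 0.862 for hairpin 94 and from 0.301 to 0.732 for hairpin 97, so how far each hairpin lowered Csnk1a1 was not measurable. Of 6 tested genes of the casein kinase 1 and 2 families, 0 passed in the limma test, and 0 had an unadjusted p under 0.05. Csnk1d, the delta kinase of the same family, differed by 0.20 and Csnk2a1, a catalytic subunit of casein kinase 2, by -0.30 (adjusted p = 0.553 and 0.625).

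The labelled cell type was set against its markers. All 6 progenitor markers were detected. The gate genes Kit, Fcgr2b and Fcgr3 were detected on all 6 arrays and the gate gene Cd34 on 4 of 6. Hoxa9 and Meis1, which belong to the MLL-AF9 program and not to the sort gate, were detected on all 6. Of the neutrophil markers 7 of 9 were tested, of the monocyte and macrophage markers 4 of 9, of the mast cell, basophil and eosinophil markers 3 of 7, and of the B cell markers 1 of 6. Of the erythroid, megakaryocyte and T and NK cell markers 0 were tested, and the T cell receptor genes Cd3d, Cd3e and Cd3g were detected on 0 arrays. In each marker list 0 genes passed between the hairpins. The summed normalized signal, on the linear scale, of the 6 progenitor markers was 1776 to 1830 with hairpin 94 and 1546 to 1661 with hairpin 97. Of these markers Kit, Fcgr3 and Meis1 differed toward hairpin 94, and Hoxa9, Fcgr2b and Cd34 toward hairpin 97. The sum of the 3 mast cell, basophil and eosinophil genes was 296 to 345 and 177 to 234, so neither pair of ranges overlapped. The B cell list had 1 tested gene, Cd79b, a chain of the B cell receptor complex, at 122.4 to 147 and 69.8 to 103, also without overlap. Among single probes, 10.1% of all tested had the hairpin 94 arrays all above the hairpin 97 arrays. A sum on the linear scale is weighted to its brightest members, so the ranges are a description. The neutrophil sums overlapped, at 12386 to 12664 and 11981 to 14153, as did the monocyte and macrophage sums, at 2946 to 3658 and 2804 to 3100. The defining mast cell and basophil markers Mcpt8, Fcer1a and Ms4a2 were detected on 0 arrays. In such bulk samples fewer cells of a type and less RNA per cell cannot be told apart.

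Hairpin 94 and hairpin 97 left a small set of genes at different levels, mostly higher with hairpin 94. At an adjusted p under 0.05 in the limma test 81 of 11142 probes were called, or 0.727%, with 63 higher with hairpin 94 (0.565%) and 18 higher with hairpin 97 (0.162%). By the brightest detected probe of each gene 67 of 7639 genes were called (0.877%), 52 of them higher with hairpin 94 (0.681%) and 15 higher with hairpin 97 (0.196%). The genes higher with hairpin 94 included the chemokines Ccl3, Ccl4 and Ccl9, the cell cycle gene Ccnd2 and the p53 target Zmat3. They also included the interferon-induced genes Ifi27 and Oas1g and, from the primary granule list, Mpo, Ctsc and Cst7. Those higher with hairpin 97 were led by Tgm2, Nceh1 and Vamp7. Called probes differed by 1.60 to 3.63-fold, and 23 of the 81 by more than 2-fold. All 3 arrays of one hairpin lay beyond all 3 of the other for each of the 81 called probes, against 10.1% (hairpin 94 above) and 10.6% (hairpin 97 above) of all tested probes. The calls were made on these same arrays, so the separation follows largely from the call and is a description. The count fell to 21 without hairpin 94 replicate 1, 56 without replicate 2 and 15 without replicate 3. Of the 81 called probes, 37 were called without hairpin 94 replicate 2. The count was 18 without hairpin 97 replicate 4, 27 without replicate 5 and 14 without replicate 6. Each of the 81 that was tested kept its sign in the alternatives that fitted probes one by one. The fit on the mean of a gene's probes was not checked for sign. Of the 36 called genes that the naming rule took, 12 were called without any 1 of the 6 arrays (Arhgef6, Ccl4, Ccl9, Ccnd2, Dusp6, Gpc1, Ifi27, Nceh1, Slc25a12, Tgm2, Vamp7 and Zmat3), 14 in some of these fits, and 10 in 0 of them (Capza1, Cst7, Ctsc, Cyp2a5, D030056L22Rik, Gfpt1, Mpo, Nxt2, Pdia5 and Zfp646). Of these probes 22.2% were higher with hairpin 97. The share was 36.7% of 245 called probes with a prior variance that follows the signal, and 37.5% of 24 with scaling of each array by its median in place of quantiles.

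**Figure D1:**
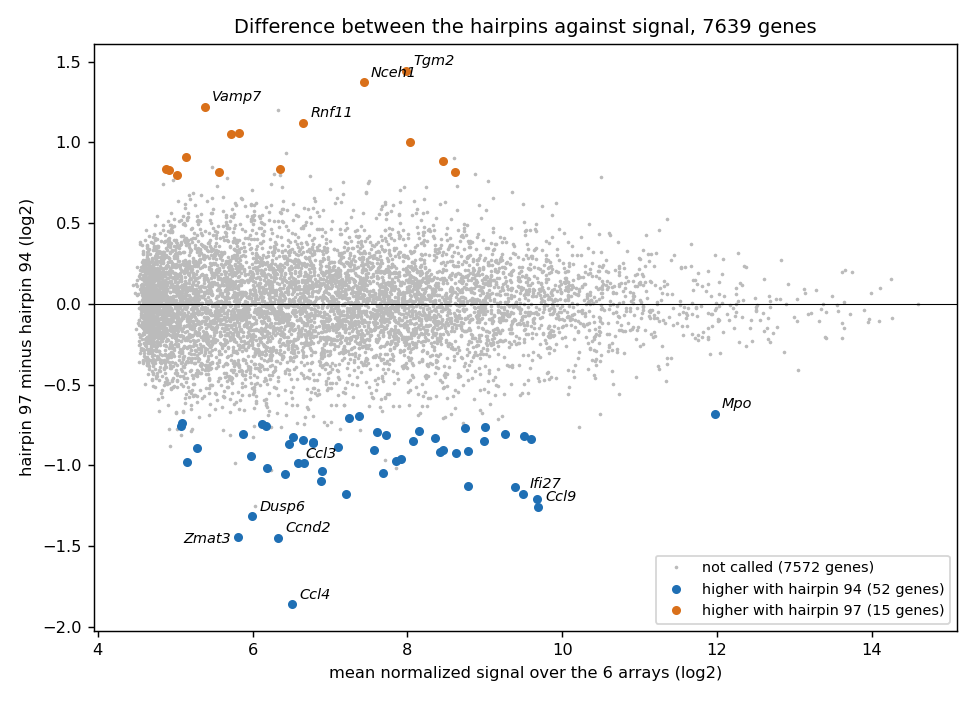
Difference between the hairpins (hairpin 97 minus hairpin 94, log2) against the mean normalized signal over the 6 arrays (log2), 1 point per gene by its brightest probe. The 52 blue points are genes called higher with hairpin 94 and the 15 orange points genes called higher with hairpin 97, and the farthest points are Ccl4 at -1.86 and Tgm2 at 1.44.

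The largest difference between the hairpins was in a chemokine. Ccl4, also known as MIP-1 beta, attracts monocytes and lymphocytes, and its probe read 7.24, 7.40 and 7.70 with hairpin 94 and 5.75, 5.93 and 5.07 with hairpin 97. The lowest hairpin 94 array lay above the highest hairpin 97 array by more than 1 log2 unit, and the fitted difference was -1.86 (SE 0.22, adjusted p = 0.00456), or 3.63-fold. Its other detected probe gave -0.70 (adjusted p = 0.0833). Ccl9, a myeloid chemokine of the mouse, read 10.31, 10.27 and 10.38 with hairpin 94 and 9.01, 9.17 and 8.998 with hairpin 97, a difference of -1.26 (SE 0.13, adjusted p = 0.00456), or 2.39-fold. Ccl3, or MIP-1 alpha, which shares receptors with Ccl4, read 6.93, 7.18 and 7.13 with hairpin 94 and 6.04, 6.12 and 6.12 with hairpin 97, a difference of -0.99 (SE 0.14, adjusted p = 0.0112). In both genes the arrays of each hairpin lay close together and the groups did not overlap. These 3 were the called genes among 7 tested chemokines and chemokine receptors, with 0 higher with hairpin 97, against 0.681% and 0.196% of all tested genes. The median of the 7 was -0.44, against -0.0015 over all genes tested. Ccl6, a neighbour of Ccl9 in the gene table of GRCm38.p6 and the next by p, differed by -0.44 (adjusted p = 0.328) with overlapping arrays, and the receptor Cxcr4, which holds blood-forming cells in the marrow, by -0.18 (adjusted p = 0.589). The list kept 3 calls without hairpin 94 replicate 1, without replicate 2 and without hairpin 97 replicate 5, and 2 without hairpin 94 replicate 3 and without hairpin 97 replicate 4 or 6.

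The genes of these chemokines lie in a cluster on chromosome 11. The windows from 250 bases before to 50 bases after the start of Ccl9 and of Ccl3, from RefSeq on GRCm38.p6, are shown because these genes moved together between the hairpins. Ccl9 lies on the minus strand at chr11:83578587-83578886 and Ccl3 on the minus strand at chr11:83649329-83649628, and each is written 5′ to 3′ on its own strand. For Ccl4 no window was found by symbol. Capitals mark letters that match an AP-1 site (TGANTCA) or an NF-kB site, searched on both strands.
Ccl9: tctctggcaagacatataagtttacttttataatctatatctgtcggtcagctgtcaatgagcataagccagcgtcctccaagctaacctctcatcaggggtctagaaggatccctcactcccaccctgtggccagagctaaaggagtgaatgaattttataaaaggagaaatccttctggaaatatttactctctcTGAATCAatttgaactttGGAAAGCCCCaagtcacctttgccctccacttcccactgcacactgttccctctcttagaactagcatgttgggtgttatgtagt
Ccl3: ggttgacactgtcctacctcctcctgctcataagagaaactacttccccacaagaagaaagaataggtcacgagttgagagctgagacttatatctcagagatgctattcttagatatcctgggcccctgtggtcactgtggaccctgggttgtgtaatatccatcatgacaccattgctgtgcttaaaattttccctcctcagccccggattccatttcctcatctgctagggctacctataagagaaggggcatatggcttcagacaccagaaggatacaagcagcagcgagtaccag
In the Ccl9 window an AP-1 match began 53 bases and an NF-kB match 35 bases before the start, with no overlap between them, and the Ccl3 window held no match to either. Of all 32851 windows of this length 7.81% held an AP-1 match and 8.46% an NF-kB match. Among the 54 windows of the 40 genes called higher with hairpin 94 that matched the table by symbol, the shares were 9.26% and 7.41%, or 5 and 4 windows. Among the 8056 windows of the tested genes that matched, from which the called genes were drawn, they were 5.05% and 9.72%. A match describes letters and is not a site shown to be bound.

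The chemokines were also the called members of the monocyte and macrophage list, in which 3 of 17 tested genes passed as higher with hairpin 94, 0 passed the other way and the median was -0.14, beside 0.681% of all tested genes called higher with hairpin 94. Adgre1, which encodes the macrophage antigen F4/80, read 5.81, 5.58 and 5.94 with hairpin 94 and 5.32, 5.07 and 4.86 with hairpin 97 without overlap and differed by -0.69 (SE 0.16, adjusted p = 0.0972). Gpnmb, a glycoprotein of macrophages, differed by -0.62 (SE 0.16, adjusted p = 0.109). The summed signal of the monocyte and macrophage markers overlapped between the hairpins, as given above, and C1qa and Ms4a6c were detected on 0 arrays. The part of monocytes or macrophages in these differences was not tested.

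**Figure D2:**
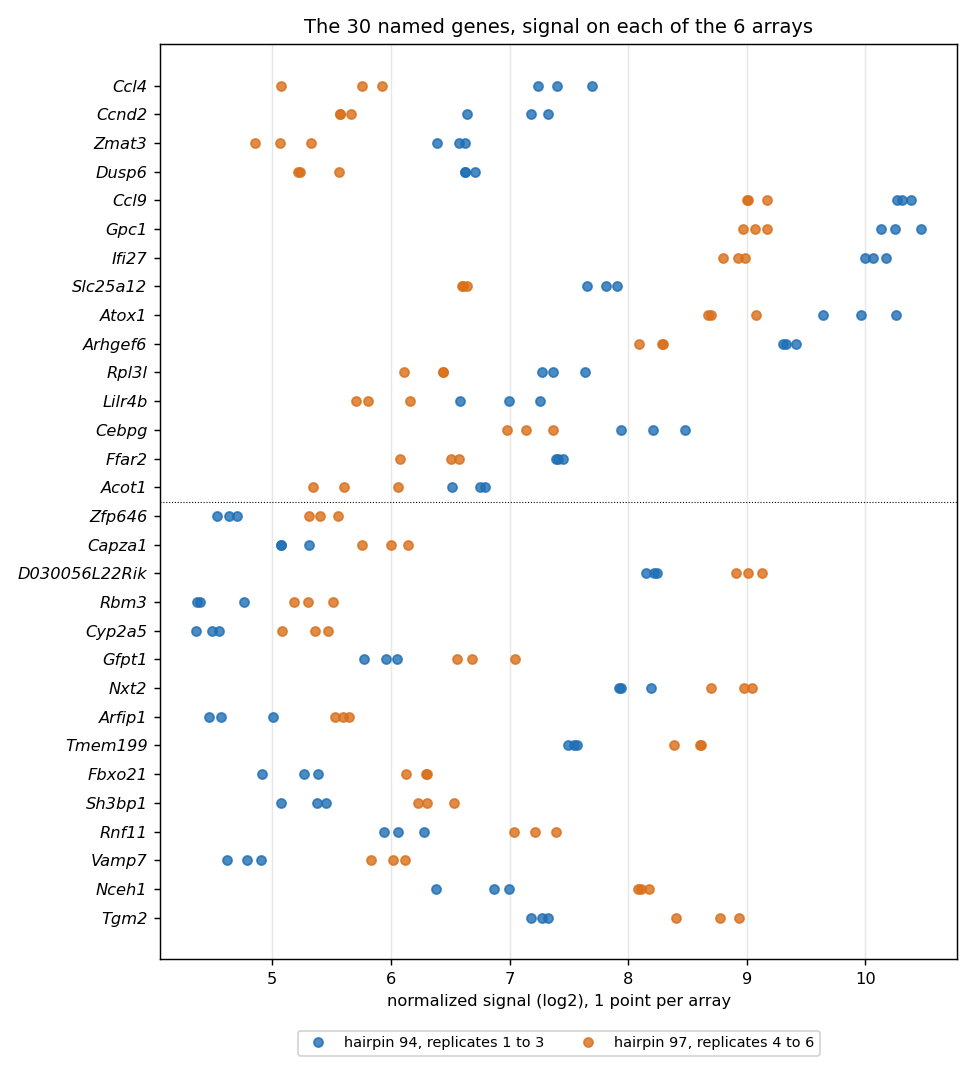
Normalized signal (log2) of the 15 genes with the largest differences called higher with hairpin 94 (above the dotted line) and of all 15 called higher with hairpin 97 (below it), with 1 point per array, blue for the 3 hairpin 94 arrays and orange for the 3 hairpin 97 arrays. Genes were taken only if the groups were separate, so in each row the blue and orange points do not overlap. In Tgm2 the 3 hairpin 94 arrays lay at 7.18 to 7.33 and the hairpin 97 arrays at 8.40 to 8.94.

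Genes of p53, beta-catenin and the cell cycle are those the target's known roles point to. Zmat3, an RNA-binding zinc finger protein that p53 induces, read 6.39, 6.63 and 6.57 with hairpin 94 and 5.32, 5.07 and 4.86 with hairpin 97, a difference of -1.45 (SE 0.16, adjusted p = 0.00456), or 2.73-fold. It was the only called gene among 36 tested p53 targets, beside 0.681% of all tested genes called higher with hairpin 94. In the list 0 were called higher with hairpin 97, and Zmat3 was called in each of 19 alternatives. The median of the list was -0.12, with 24 members below 0 and 12 above, the highest at 0.55. In 7 of the 36 genes the hairpin 94 arrays all lay above the hairpin 97 arrays, and in 5 the reverse held. Of all 7639 genes 852 and 813 were separated in these directions. Ccng1, a cyclin induced by p53, read 9.16, 9.20 and 8.92 with hairpin 94 and 8.53, 8.40 and 8.12 with hairpin 97, with a difference of -0.74 (SE 0.16, adjusted p = 0.0651). Its arrays did not overlap, and its other detected probes gave -0.36 and -0.47. Cdkn1a, which encodes the cell cycle inhibitor p21, read 8.39, 8.51 and 8.48 with hairpin 94 and 8.11, 8.02 and 7.93 with hairpin 97, and its 3 probes gave -0.44, -0.67 and -0.43 (adjusted p = 0.16, 0.0838 and 0.279). The hairpin 94 arrays lay above the hairpin 97 arrays for each of the 3 probes of Cdkn1a, as they did for 10.1% of all tested probes. These 3 probes share the same arrays and are not replicates. Mdm2, the ligase that degrades p53, differed by -0.26, and Bbc3, which encodes the death-promoting PUMA, by -0.37 on its brighter probe and 0.31 on a dim one (adjusted p = 0.402, 0.244 and 0.33). Of these, Mdm2 and Bbc3 were named after their values were seen.

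Ccnd2 encodes cyclin D2, a G1 cyclin listed among beta-catenin targets, and read 7.18, 6.64 and 7.32 with hairpin 94 and 5.57, 5.66 and 5.57 with hairpin 97. The groups lay about 1 log2 unit apart at their nearest arrays, with a fitted difference of -1.45 (SE 0.18, adjusted p = 0.00574), or 2.73-fold, and its second probe gave -0.82 (adjusted p = 0.103). It was the only called gene of 13 tested in the beta-catenin list and of 16 tested among G1 cyclins, kinases and inhibitors. Of all tested genes 0.681% were called in its direction. The medians of the beta-catenin and G1 lists were -0.06 and 0.27, and 13 of the 16 lay above 0, on the side opposite to Ccnd2. The 8 other detected probes of the G1 list had a median of -0.02, so the shift of the brightest probes was not seen in them. Ctnnb1, beta-catenin itself, read 6.34, 6.80 and 6.61 with hairpin 94 and 6.76, 7.0 and 6.72 with hairpin 97 with overlapping arrays, a difference of 0.24 (SE 0.16, adjusted p = 0.504). Axin1, a scaffold of its destruction complex, differed by 0.25 (SE 0.18, adjusted p = 0.548). Ccne2, cyclin E2, which acts at the entry into S phase, went the other way at 5.57, 6.41 and 5.18 with hairpin 94 and 7.04, 6.69 and 7.02 with hairpin 97, a difference of 1.20 (SE 0.26, adjusted p = 0.0708). Its hairpin 94 arrays spread over more than 1 log2 unit but did not reach the hairpin 97 arrays, and without hairpin 94 replicate 2 it was called, at 1.52 (adjusted p = 0.0191).

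Dusp6 encodes a phosphatase that switches off ERK and is itself induced by ERK signalling. It read 6.71, 6.63 and 6.62 with hairpin 94 and 5.57, 5.23 and 5.22 with hairpin 97. The difference was -1.31 (SE 0.14, adjusted p = 0.00456), or 2.49-fold. Dusp6 was the only called gene of 17 tested in the immediate early list, against 0.681% of all tested genes called higher with hairpin 94. Members of that list lay on both sides. Ier3, an early gene of growth factor and stress signals, differed by -0.52, Egr1, a growth-induced transcription factor, by -0.55, and Klf2, a zinc finger transcription factor, by 0.49 (adjusted p = 0.147, 0.21 and 0.163).

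Interferon-induced genes included 2 called genes of 30 tested, both higher with hairpin 94, with 0 the other way and a median of -0.18, against 0.681% of all tested genes called higher with hairpin 94. Of the 30, 24 were below 0. Ifi27, a small membrane protein strongly induced by type I interferon, read 10.17, 9.999 and 10.06 with hairpin 94 and 8.93, 8.98 and 8.80 with hairpin 97, a difference of -1.18 (SE 0.13, adjusted p = 0.00456), or 2.26-fold. Its second probe was called too, at -1.26 (adjusted p = 0.00803). Oas1g, of the oligoadenylate synthetase family that senses double-stranded RNA, read 8.23, 8.01 and 8.15 with hairpin 94 and 7.25, 7.37 and 7.33 with hairpin 97, a difference of -0.81 (SE 0.13, adjusted p = 0.0272), and its second probe gave -0.58 (adjusted p = 0.0952). In both genes the arrays of each hairpin lay close together and the groups did not overlap. Members of the Oas1 family are near-identical copies, so the probe may also read its relatives. Ifitm3, a membrane protein that blocks virus entry, differed by -0.55 (SE 0.15, adjusted p = 0.13), with no overlap, and Gbp3, a guanylate-binding protein, by -0.64 (SE 0.23, adjusted p = 0.22). Ifi27 was called in each of 19 alternatives and Oas1g in 12, and leaving out hairpin 94 replicate 1 or 3, or any 1 of the hairpin 97 arrays, left 1 call in the list.

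The window around the start of Oas1g is shown because it holds overlapping matches to the interferon-stimulated response element (GAAA, then any 2 letters, then GAAA, both strands searched), which are in capitals, as is a match to the p53 decamer farther upstream. It lies on the minus strand of chr5:120887564-120887863 on GRCm38.p6, from RefSeq, written 5′ to 3′ on that strand.
Oas1g: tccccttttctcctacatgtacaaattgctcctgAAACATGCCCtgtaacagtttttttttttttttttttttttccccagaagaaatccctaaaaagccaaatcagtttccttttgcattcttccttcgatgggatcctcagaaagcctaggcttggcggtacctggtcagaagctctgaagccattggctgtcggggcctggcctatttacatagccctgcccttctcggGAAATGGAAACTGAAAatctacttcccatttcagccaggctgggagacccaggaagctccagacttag
The response element matches began 18 and 12 bases before the start and share letters, and the p53 decamer began 216 bases before it. Of all 32851 windows 3.44% held the response element, against 36.7% of the 30 windows of the 24 tested interferon genes found in the table, a share that follows from what the list holds. Among the windows of genes called higher with hairpin 94 the share was 3.7%, and among those of tested genes 2.97%. The p53 decamer stood in 8.36% of all windows and in 6.88% of those of tested genes. For Ifi27, the other called gene of the interferon list, no window was found by symbol.

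The primary granule list held proteins of the first granules that promyelocytes make, and activators and inhibitors of these proteins. It included 3 called genes of 17 tested, again higher with hairpin 94, with 0 the other way and a median of -0.27. Of all tested genes 0.681% were called in that direction. Mpo encodes myeloperoxidase, which makes hypochlorous acid in phagocytes, and read 12.30, 12.27 and 12.36 with hairpin 94 and 11.57, 11.57 and 11.74 with hairpin 97. Its difference was -0.68 (SE 0.13, adjusted p = 0.0457), its 3 other probes gave -0.69, -0.79 and -0.51, and the second of these was also called (adjusted p = 0.0338). Ctsc, cathepsin C, which activates the serine proteases of these granules, read 7.66, 7.76 and 7.74 with hairpin 94 and 7.01, 6.98 and 7.09 with hairpin 97, a difference of -0.70 (SE 0.13, adjusted p = 0.0394). Cst7, cystatin F, an inhibitor of cathepsin C, read 8.25, 7.96 and 7.81 with hairpin 94 and 7.19, 7.16 and 7.30 with hairpin 97, a difference of -0.79 (SE 0.15, adjusted p = 0.0427). Within each of these genes the arrays of a hairpin lay closer together than the groups. Serpinb1a, an inhibitor of neutrophil proteases, read 10.44, 10.69 and 10.66 with hairpin 94 and 9.99, 9.61 and 9.90 with hairpin 97 and just missed the threshold at -0.76 (SE 0.15, adjusted p = 0.0525). The proteases themselves differed less: Ctsg, cathepsin G, by -0.30, Prtn3, proteinase 3, by -0.21 and Elane, neutrophil elastase, by 0.0015 (adjusted p = 0.322, 0.492 and 0.998). These 3 were named after their values were seen, and their signals were among the brightest on the arrays. The count of granule calls was 0 when any 1 of the 6 arrays was left out, 0 under either scaling in place of quantile normalization and with all 9 arrays in the fit, and 7 with a prior variance that follows the signal.

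Genes of secondary and tertiary granules, which form later, gave 0 calls of 25 tested and a median of 0.02. Camp, the cathelicidin precursor, read 8.53, 8.16 and 8.36 with hairpin 94 and 9.11, 9.05 and 8.61 with hairpin 97, a difference of 0.58 (SE 0.17, adjusted p = 0.153), and Olfm4, an olfactomedin of neutrophil granules, differed by 0.63 (SE 0.20, adjusted p = 0.185). Lyz1, a lysozyme, and Fcnb, a ficolin, lay on the other side at -0.29 and -0.24 (adjusted p = 0.341 and 0.435). In the mast cell, basophil and eosinophil list 0 of 7 passed, with a median of -0.30. Prg2, the eosinophil major basic protein, read 7.91, 7.64 and 7.79 with hairpin 94 and 7.35, 6.92 and 6.74 with hairpin 97, a difference of -0.78 (SE 0.17, adjusted p = 0.0781). Hdc, which makes histamine, differed by -0.70 (SE 0.16, adjusted p = 0.0838) and Cpa3, the mast cell carboxypeptidase, by -0.66 (SE 0.16, adjusted p = 0.105). Arrays of the hairpins did not overlap in any of these 3, which were named by their small p. In the list all hairpin 94 arrays lay above the hairpin 97 arrays for 4 of 7 genes, against 852 of all 7639 genes. The part of the listed genes in the granule differences was not tested. Among surface genes of the gate and of stem cells 0 of 16 passed. Kit, the stem cell factor receptor, differed by -0.32 (SE 0.16, adjusted p = 0.382), Cd34 by 0.05 (SE 0.17, adjusted p = 0.91) and the Fc receptor genes Fcgr3 and Fcgr2b by -0.41 and 0.07 (adjusted p = 0.21 and 0.853). Cd93, a receptor of early progenitors, read 9.67, 9.11 and 9.43 with hairpin 94 and 8.69, 8.71 and 8.54 with hairpin 97, a difference of -0.76 (SE 0.16, adjusted p = 0.0707).

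Stress genes gave single calls, where 0.681% of all tested genes were called higher with hairpin 94. Cebpg, a partner of ATF4 among the bZIP transcription factors, read 8.48, 7.94 and 8.21 with hairpin 94 and 7.14, 7.37 and 6.98 with hairpin 97, a difference of -1.05 (SE 0.17, adjusted p = 0.0255), or 2.07-fold. It was the only called gene of 26 tested in the list of ATF4 and amino acid stress, whose median was -0.23, and of 23 tested myeloid transcription factors, whose median was -0.03. The 13 other detected probes of the ATF4 list had a median of -0.005, so the shift of the brightest probes was not seen in them. Of the 26, 10 had an unadjusted p under 0.05 as higher with hairpin 94 and 1 as higher with hairpin 97, against 8.27% and 6.64% of all genes. Vldlr, a lipoprotein receptor, gave -1.03, -0.76 and -0.78 on its 3 probes, of which the second was called (adjusted p = 0.0833, 0.0409 and 0.0565). Chac1, which degrades glutathione, read 9.01, 9.27 and 9.63 with hairpin 94 and 8.67, 8.63 and 8.58 with hairpin 97, a difference of -0.68 (SE 0.17, adjusted p = 0.105), and Ddit3, or CHOP, a stress-induced transcription factor, differed by -0.64 (SE 0.18, adjusted p = 0.137). For both, hairpin 94 replicate 3 was the highest array. Without hairpin 94 replicate 1 or 3, or hairpin 97 replicate 4 or 6, 0 genes of the list were called. Among genes of protein folding in the endoplasmic reticulum Pdia5, a disulfide isomerase, was the only call of 24, at 6.54, 6.68 and 6.12 with hairpin 94 and 5.51, 5.30 and 5.71 with hairpin 97 and a difference of -0.94 (SE 0.18, adjusted p = 0.0403). Its other probe gave 0.04 (adjusted p = 0.909), so the probes of this gene disagreed.

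The remaining genes with the largest differences toward hairpin 94 belong to varied processes. Gpc1, a cell surface heparan sulfate proteoglycan, read 10.13, 10.25 and 10.47 with hairpin 94 and 9.17, 9.07 and 8.97 with hairpin 97, a difference of -1.21 (SE 0.14, adjusted p = 0.00456). Slc25a12, the mitochondrial carrier of aspartate and glutamate, read 7.91, 7.65 and 7.81 with hairpin 94 and 6.61, 6.64 and 6.60 with hairpin 97, a difference of -1.18 (SE 0.13, adjusted p = 0.00456), but its dimmer probe gave -0.19 (adjusted p = 0.531). Arhgef6, an activator of Rac and Cdc42, read 9.30, 9.41 and 9.33 with hairpin 94 and 8.28, 8.29 and 8.09 with hairpin 97, a difference of -1.13 (SE 0.13, adjusted p = 0.00456), and its other probe gave -0.04 (adjusted p = 0.941). For both of these genes a single probe carries the call. Atox1, a copper chaperone, differed by -1.13 (SE 0.18, adjusted p = 0.0255), and Rpl3l, a muscle form of a ribosomal protein, by -1.10 (SE 0.16, adjusted p = 0.0136). Lilr4b, an inhibitory receptor of myeloid cells, read 6.58, 6.995 and 7.26 with hairpin 94 and 6.16, 5.71 and 5.80 with hairpin 97, a difference of -1.05 (SE 0.19, adjusted p = 0.0383). Ffar2, a receptor for short-chain fatty acids, differed by -1.03 (SE 0.16, adjusted p = 0.0196), and Acot1, which splits acyl-CoA esters, by -1.02 (SE 0.19, adjusted p = 0.0387). Genes called below these in size included, as named after their values were seen, the leukocyte surface genes Cd52, Cd84, Selplg and Pecam1 (-0.82, -0.83, -0.77 and -0.75) and Alox5, the first enzyme of leukotriene synthesis, whose brighter probes both passed, at -0.91 and -0.90.

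Genes higher with hairpin 97 were fewer, and by the brightest probe 0 members of the 37 gene lists were called in this direction. Tgm2, a transglutaminase that crosslinks proteins, read 7.33, 7.28 and 7.18 with hairpin 94 and 8.94, 8.77 and 8.40 with hairpin 97. Every hairpin 97 array exceeded every hairpin 94 array by more than 1 log2 unit, and the difference was 1.44 (SE 0.16, adjusted p = 0.00456), or 2.72-fold. Nceh1, a hydrolase of cholesterol esters in macrophages, read 6.38, 6.999 and 6.87 with hairpin 94 and 8.18, 8.10 and 8.08 with hairpin 97, a difference of 1.37 (SE 0.17, adjusted p = 0.0058), or 2.59-fold. Vamp7, a SNARE protein of late endosomes and lysosomes, read 4.62, 4.79 and 4.91 with hairpin 94 and 6.12, 6.02 and 5.83 with hairpin 97 and was detected on 2 of the 3 hairpin 94 arrays, with a difference of 1.22 (SE 0.15, adjusted p = 0.00456). Tgm2 and Nceh1 were called in each of 19 alternatives, and Vamp7 in each of the 18 in which it was tested. Rnf11, a ubiquitin ligase of the RING type, read 6.06, 6.28 and 5.95 with hairpin 94 and 7.39, 7.22 and 7.04 with hairpin 97, a difference of 1.12 (SE 0.15, adjusted p = 0.0105). Fbxo21, a subunit that selects substrates of a ubiquitin ligase, differed by 1.05 (SE 0.16, adjusted p = 0.0174), and Tmem199, which acts in Golgi homeostasis and assembly of the vacuolar ATPase, by 1.00 (SE 0.13, adjusted p = 0.0103). Sh3bp1, an inactivator of Rac, differed by 1.05 (SE 0.15, adjusted p = 0.0159) on its brighter probe, while its other probe gave -0.29 (adjusted p = 0.322). The probes of Sh3bp1 thus pointed in opposite directions.

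The other genes of this direction had smaller differences. Nxt2, a cofactor of messenger RNA export, read 8.19, 7.92 and 7.94 with hairpin 94 and 9.04, 8.97 and 8.70 with hairpin 97, a difference of 0.89 (SE 0.15, adjusted p = 0.0309), and D030056L22Rik, an uncharacterised gene, read 8.15, 8.21 and 8.24 with hairpin 94 and 9.13, 9.01 and 8.91 with hairpin 97, a difference of 0.82 (SE 0.13, adjusted p = 0.0255). Gfpt1, the entry enzyme of hexosamine synthesis, differed by 0.84 (SE 0.16, adjusted p = 0.0457), and Capza1, a subunit of the actin capping protein, by 0.81 (SE 0.15, adjusted p = 0.0394). Of dim genes, Arfip1, an effector of ARF GTPases, Rbm3, a cold-inducible RNA-binding protein, and Zfp646, a zinc finger protein, were each detected on 1 of the 3 hairpin 94 arrays and on all 3 hairpin 97 arrays, with differences of 0.91, 0.83 and 0.80 (adjusted p = 0.0338, 0.0439 and 0.031). Cyp2a5, a cytochrome P450, was detected on 0 hairpin 94 arrays and on all 3 hairpin 97 arrays, and was at least 1.57-fold higher with hairpin 97 (adjusted p = 0.0338), a bound set against the higher of the dimmest detected signal and its own signal on each array. Its near-identical Cyp2a relatives may share its probes. Each of these 4 genes passed the detection filter by its 3 hairpin 97 arrays, the group in which it was higher, and had 1 or 0 detected arrays of hairpin 94, so the filter favoured such a difference and its adjusted p is a description. Ago2, the protein that carries the guide strand and cuts its target, was called by 1 dimmer probe at 0.72 (adjusted p = 0.0388), while its other probes, the brightest first, gave 0.21 and 0.01 (adjusted p = 0.556 and 0.99). Of 15 tested genes of the RNA interference machinery 0 passed by their brightest probe. The arrays of Dicer1, which cuts hairpins into guides, overlapped, at 6.75, 6.91 and 7.03 with hairpin 94 and 6.81, 6.58 and 6.43 with hairpin 97, a difference of -0.29 (SE 0.15, adjusted p = 0.402).

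Genes of cell division mostly lay above 0, the side of hairpin 97, by small amounts, and 0 passed the threshold. Of 36 tested mitosis genes 32 lay above 0, with a median of 0.31 against -0.0015 over all genes. At an unadjusted p under 0.05 by limma 13 of the 36 were higher with hairpin 97 and 0 with hairpin 94, against 6.64% and 8.27% of all genes, and in 18 of 36 the hairpin 97 arrays all lay above the hairpin 94 arrays, against 10.6%. Genes of this list are transcribed together in dividing cells and are not independent. Top2a, the topoisomerase that untangles chromosomes, read 9.20, 9.38 and 8.96 with hairpin 94 and 9.97, 9.65 and 9.79 with hairpin 97, a difference of 0.62 (SE 0.16, adjusted p = 0.107), with -0.06 and 0.07 on its dimmer probes. Birc5, survivin, read 9.74, 9.80 and 9.29 with hairpin 94 and 10.27, 10.19 and 10.26 with hairpin 97, a difference of 0.62 (SE 0.16, adjusted p = 0.112), and its other probes gave 0.58 and 0.37. Nusap1, a spindle protein, and Cenpa, the centromeric histone, differed by 0.61 and 0.52 (adjusted p = 0.0972 and 0.116). Between 30 and 34 of the 36 lay above 0 when any 1 array was left out, 0 passed in each of those fits, and 6 passed as higher with hairpin 97 with a prior variance that follows the signal. Cdkn1a, the cell cycle inhibitor above, lay on the opposite side, and a share of dividing cells was not measured.

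DNA replication genes had a median of 0.17, with 41 of 52 above 0 and 0 called. Of all 7639 tested genes 3803 lay above 0 and 3835 below. Rrm2, a subunit of ribonucleotide reductase, read 6.89, 6.87 and 6.48 with hairpin 94 and 7.39, 7.45 and 7.28 with hairpin 97, a difference of 0.62 (SE 0.15, adjusted p = 0.105). The genes of the replicative helicase, named after their values were seen, gave 0.38 for Mcm2, 0.43 for Mcm3, 0.31 for Mcm4, 0.31 for Mcm5, 0.28 for Mcm6 and 0.25 for Mcm7, and of these 0 passed. Splicing factors had a median of 0.20, with 40 of 51 above 0 and 0 called. Their 58 other detected probes had a smaller median of 0.08, against 0.03 for other probes of all tested genes. Hnrnpk, an RNA-binding protein of splicing and translation, read 8.70, 8.74 and 7.98 with hairpin 94 and 9.41, 9.01 and 9.41 with hairpin 97, a difference of 0.80 (SE 0.21, adjusted p = 0.118), with hairpin 94 replicate 3 the lowest array, and Tra2b, a splicing activator, differed by 0.71 (SE 0.19, adjusted p = 0.116). Histone genes lay the other way, with 37 of 47 below 0, a median of -0.17 and 0 called, and without hairpin 94 replicate 3 the number below 0 was 27. H2ax, the variant histone that marks broken DNA, was higher with hairpin 97 among them, at 0.53 (SE 0.14, adjusted p = 0.121).

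Other lists showed few or no calls. Lysosomal genes had a median of -0.14 by brightest probe and of 0.02 over their 25 other detected probes. They held 2 calls of 40, against 0.681% of all tested genes called higher with hairpin 94. These were Ctsc and Cst7, already counted in the primary granule list, and neither was called when any 1 array was left out. Cholesterol synthesis had 0 of 21, with Lss, lanosterol synthase, nearest at 8.31, 8.37 and 8.31 with hairpin 94 and 7.76, 7.73 and 7.63 with hairpin 97 and a difference of -0.63 (SE 0.13, adjusted p = 0.059). Apoptosis regulators had 0 of 20, led by Casp4, an inflammatory caspase, at -0.62 (SE 0.14, adjusted p = 0.0707). The MLL-AF9 and self-renewal list had 0 of 19: Hoxa7, a homeobox gene that the fusion activates, lay at -0.64, Hoxa9 at 0.41 and their partner Meis1 at -0.35 (adjusted p = 0.193, 0.314 and 0.292), so its members lay on both sides. Also at 0 calls were the phagocyte oxidase (5 tested), erythroid and megakaryocyte (3), T, NK and B cell (5), Toll-like receptor and NF-kB (26), heat shock (21), glycolysis and hypoxia (26), oxidative phosphorylation (60), cytosolic ribosomal protein (52), ribosome biogenesis and MYC target (38), proteasome (38), DNA repair (45), antioxidant (33) and MLL chromatin regulator (38) lists, whose medians ran from -0.33 for the T, NK and B cell genes to 0.11 for the oxidase genes.

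**Figure D3:**
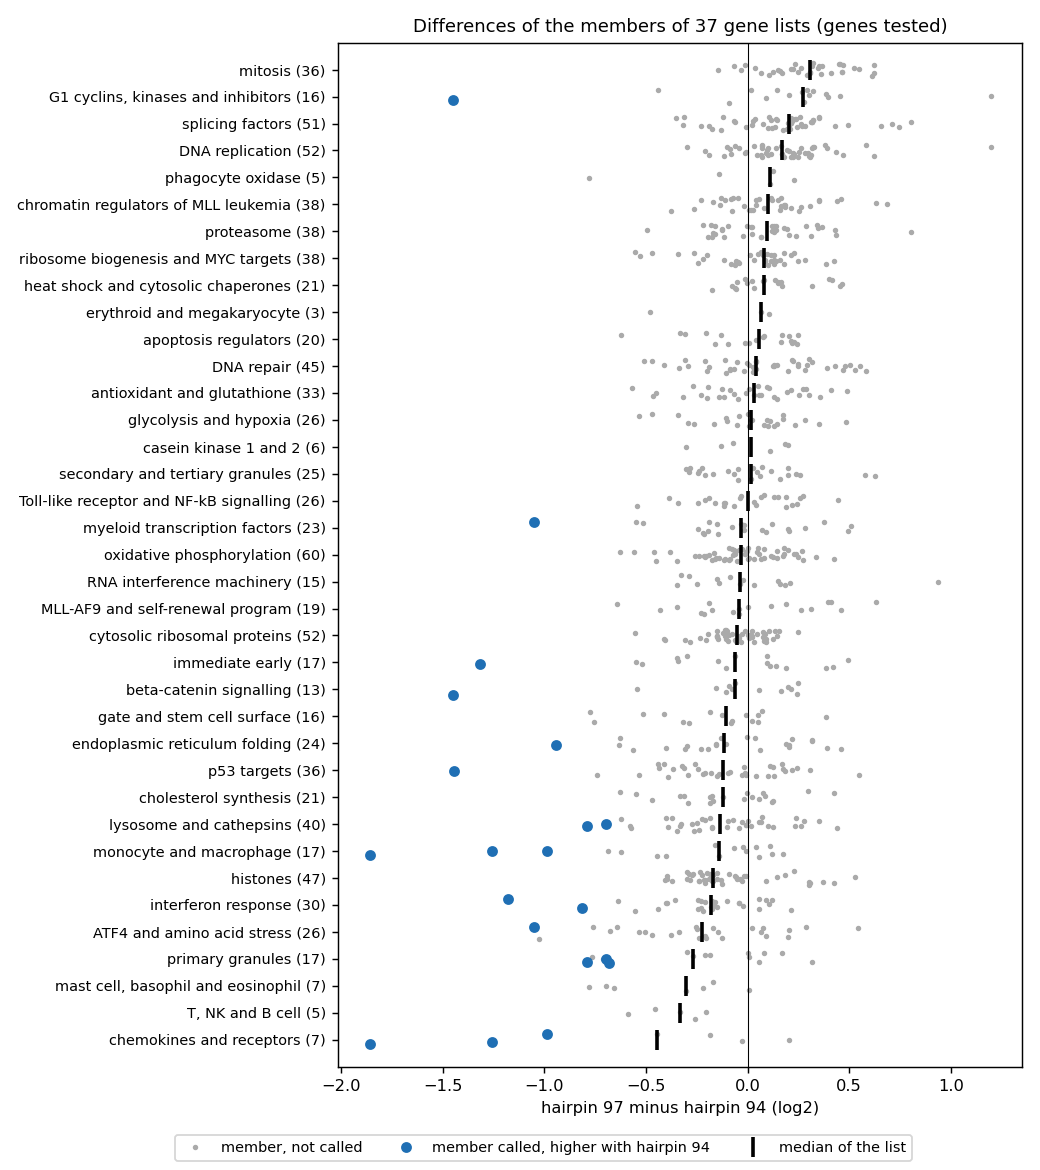
Differences between the hairpins (hairpin 97 minus hairpin 94, log2) of the tested members of 37 gene lists, 1 point per gene by its brightest probe, with the number of tested genes in brackets and the list median as a bar. Large blue points are called genes, all of them higher with hairpin 94, and medians run from -0.44 for chemokines and receptors to 0.31 for mitosis.

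Probes of the same gene were set beside each other as a description, since they share arrays. Of the 67 called genes 27 had another detected probe, 35 probes in all. The other probe had the same sign for 33 of the 35 (94.3%), against 63.9% of 3503 other probes of all tested genes, and 7 were called the same way with 0 the opposite way. The exceptions in sign were Pdia5 and Sh3bp1. Other probes of genes higher with hairpin 94 had a median of -0.51, smaller in size than the differences of the called probes.

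**Figure D4:**
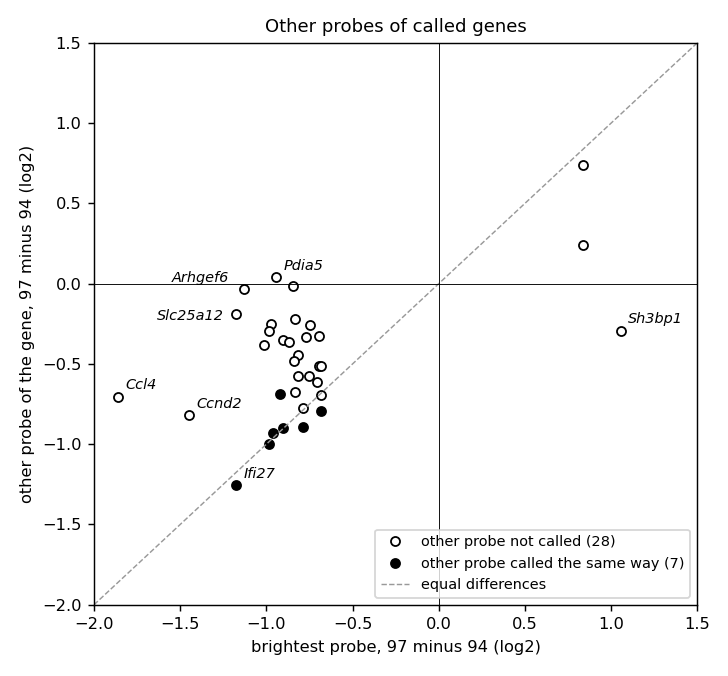
Difference between the hairpins (hairpin 97 minus hairpin 94, log2) of each other detected probe of a called gene against that of the gene's brightest probe, 1 point per other probe. Filled points are the 7 probes that were called themselves, the dashed line marks equal differences, and most points lie above the line on the left, where the other probe showed the smaller difference.

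The Luc arrays place the called genes relative to control cells, as levels only. They were dimmer, with 9956 ± 602 detected probes (SD, n = 3), so no comparison with Luc is tested here, and the 9 arrays were normalized together for these levels. Of the 52 genes higher with hairpin 94, the Luc mean lay nearer the hairpin 94 mean for 33 and nearer the hairpin 97 mean for 19. It lay above both hairpins for 21 of the 52, between them for 16 and below both for 15. Of the 15 genes higher with hairpin 97 the Luc mean lay nearer hairpin 94 for 10 and nearer hairpin 97 for 5. By these levels the called genes were not all set apart from Luc by the same hairpin. No such count was made over all tested genes, so the counts are a description.

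Levels of single genes show both cases. Ccl4 lay at 6.94 ± 0.31 with Luc, 7.10 ± 0.23 with hairpin 94 and 5.37 ± 0.38 with hairpin 97 (SD, n = 3). Ccl9 lay at 9.83 ± 0.12 with Luc, 9.98 ± 0.06 with hairpin 94 and 8.72 ± 0.10 with hairpin 97 (SD, n = 3). Ccnd2 lay at 6.69 ± 0.25 with Luc, 6.71 ± 0.35 with hairpin 94 and 5.38 ± 0.04 with hairpin 97 (SD, n = 3). In these 3 genes the Luc arrays lay with hairpin 94, and hairpin 97 was the lower group. Zmat3 lay at 4.34 ± 0.07 with Luc, 6.21 ± 0.12 with hairpin 94 and 4.95 ± 0.19 with hairpin 97 (SD, n = 3), and its probe was detected on 0 Luc arrays. Dusp6 lay at 4.71 ± 0.42 with Luc, 6.33 ± 0.05 with hairpin 94 and 5.16 ± 0.16 with hairpin 97 (SD, n = 3), and Ifi27 at 8.10 ± 0.18 with Luc, 9.74 ± 0.09 with hairpin 94 and 8.56 ± 0.10 with hairpin 97 (SD, n = 3). In these genes the Luc mean was below both hairpins and hairpin 94 was the highest group. Tgm2 lay at 6.65 ± 0.20 with Luc, 6.92 ± 0.07 with hairpin 94 and 8.36 ± 0.27 with hairpin 97 (SD, n = 3), with hairpin 97 the group apart. Nceh1 lay at 8.02 ± 0.29 with Luc, 6.42 ± 0.31 with hairpin 94 and 7.77 ± 0.05 with hairpin 97 (SD, n = 3), with hairpin 94 the group apart. Mpo lay at 10.96 ± 0.28 with Luc, 11.96 ± 0.05 with hairpin 94 and 11.29 ± 0.10 with hairpin 97 (SD, n = 3), with the arrays of Luc and hairpin 97 overlapping below hairpin 94.

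**Figure D5:**
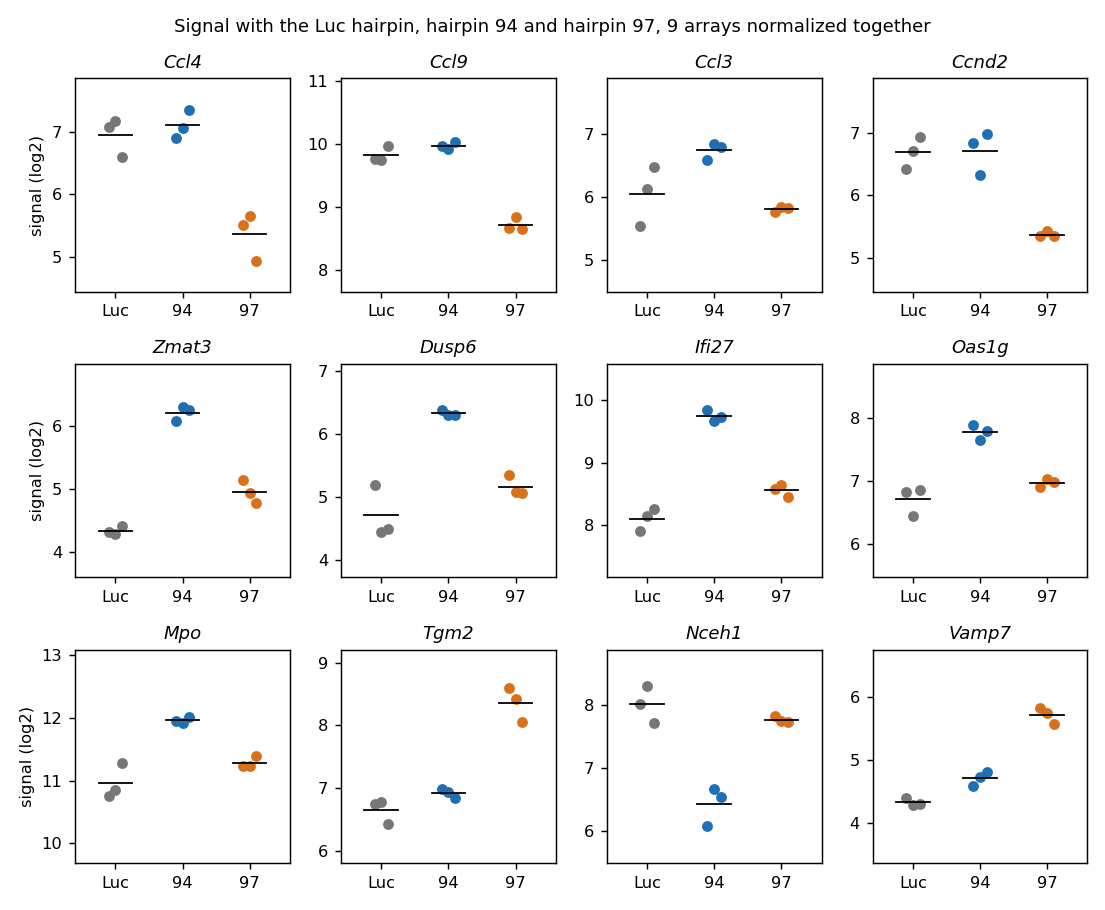
Signal (log2) of 12 called genes on the 9 arrays normalized together, 1 point per array, with grey for Luc, blue for hairpin 94 and orange for hairpin 97, the group mean as a bar, and the same span of values on each vertical axis. Luc lies with hairpin 94 in Ccl4, Ccl9 and Ccnd2, below both hairpins in Zmat3, Dusp6 and Ifi27, and with hairpin 97 in Nceh1.

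Within a hairpin a few genes spread widely over its 3 arrays. Over the 6242 genes detected on all 6 arrays the median range was 0.33 with hairpin 94 and 0.25 with hairpin 97. With hairpin 94 the widest were Chd1, a chromatin remodeler, Srgn, the proteoglycan serglycin, Prf1, perforin, Pdap1, a PDGF-associated phosphoprotein, and Ddx21, a nucleolar RNA helicase, with ranges of 1.48 to 2.04. With hairpin 97 they were Pdpk1, a kinase upstream of AKT, Ddx5, an RNA helicase, Tada2a, a histone acetylation adaptor, Xist, the noncoding RNA of the inactive X chromosome, and H2ac21, a histone, with ranges of 1.20 to 1.36. Chd1 read 6.60, 5.27 and 7.31 with hairpin 94 and 5.34, 6.01 and 5.56 with hairpin 97, and Xist read 8.19, 7.36 and 8.66 with hairpin 94 and 6.92, 8.14 and 7.67 with hairpin 97. In both genes hairpin 94 replicate 2 and hairpin 97 replicate 4, the pair of arrays of different hairpins that correlated best, were the lowest of their groups. The same held for Pdap1, Ddx21, Pdpk1 and H2ac21, whereas Prf1 read 8.32 on hairpin 94 replicate 3 against 6.67 to 6.99 on the other arrays, and 0 of these 10 genes passed between the hairpins.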

How the data were processed

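For each probe of an array the authors deposited a bead signal intensity and a detection p-value, per the file headers, and a series matrix of log2 values whose software is not given in the sources used here. Within each array those values had the rank order of the signals and a median of 6.612, as after quantile normalization without centring of genes. No slide or scan date is given, so no batch could be tested, and the number of arrays limits the precision (median SE 0.158).

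The 6 hairpin arrays were background corrected from the detection p-values and quantile normalized with neqc (offset 16) of limma 3.58.1 in R 4.3.3, then fitted with lmFit and eBayes. Each adjusted p is from this fit, Benjamini-Hochberg adjusted over all 11142 probes, and a probe was called at an adjusted p under 0.05. The offset shrinks differences of dim probes. By the platform annotation 34885 probes had 1 gene symbol, 18 had several and 10378 were unlisted, and 34807 were matched to RefSeq gene numbers of GRCm38.p6. A gene stands for its brightest detected probe. Promoter windows are RefSeq's.

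Named are Csnk1a1, the 15 largest called differences in each direction with separate groups, up to 4 members of each list by smallest p, 4 sort markers and the 5 genes with the widest range per hairpin, and others as stated. The members and the 37 gene lists, which share some genes, were chosen with earlier results of these data known. The fit was tested on simulated data.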

Additional observations from a re-analysis of the deposited data

How the results depend on the processing

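The count of called probes, 81, kept its mostly hairpin 94 direction in each alternative run but not its size. It was 244 without background correction, 255 with an offset of 50, 245 with a prior variance that follows the signal, and 157 with the series matrix values. It was 36 with scaling by the median of probes detected throughout, 24 with scaling by the median of all probes, 36 with no filter on detection and 25 with all 9 arrays in the fit. Without 1 array it ranged from 14 to 56. The share of called probes higher with hairpin 97 was 22.2%. It was 35.7% without background correction, 36.1% with an offset of 50, 37.5% with scaling by the median of all probes and 36.7% with the prior that follows the signal, and ranged from 22.2% to 33.3% without 1 array. The cause was not tested. The difference in detected probes ranged from -274.2 to 424.3 without 1 array, within the spread of the arrays. Of the 36 called genes that the rule took, 9 were called in each alternative that tested them. No paired analysis was possible because the hairpin groups share no replicate number, with 1 to 3 in one and 4 to 6 in the other.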

Other observations

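A further set of genes was called through a dimmer probe and not through the brightest, and they are named after their values were seen. There were 7 such genes among the 74 with any called probe. Hnrnpab, an RNA-binding protein, differed by -0.96 on a dim probe (adjusted p = 0.0121) and by 0.28 on its bright one (adjusted p = 0.364), so its probes lay on opposite sides. Snapc3, a subunit of a small nuclear RNA transcription complex, gave 0.73 on its dim probe (adjusted p = 0.0394) and -0.10 on its bright one (adjusted p = 0.818). Cdca4, a cell division cycle gene, lay the same way on its 3 probes, at 0.43, 0.55 and 0.82, with the dimmest called (adjusted p = 0.0499). Dmkn, dermokine, gave -0.79 and -0.76 (adjusted p = 0.0499 and 0.0604), and Gga2, an adaptor of Golgi sorting, gave -0.68 on its called probe and -0.57 on its brightest (adjusted p = 0.0464 and 0.108). Vldlr and Ago2 were described above.

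Among genes called higher with hairpin 94 that the text has not yet described, Tasp1 encodes taspase 1, the protease that cleaves the MLL protein. It read 7.28, 7.11 and 7.25 with hairpin 94 and 6.39, 6.55 and 6.13 with hairpin 97, a difference of -0.86 (adjusted p = 0.0338 by limma). Gps1, a subunit of the COP9 signalosome, differed by -0.91 and Gne, the entry enzyme of sialic acid synthesis, by -0.87 (adjusted p = 0.0136 and 0.0232). Gpr84, a receptor for medium-chain fatty acids on myeloid cells, differed by -0.70 on its brightest probe and by -0.61 on its other one (adjusted p = 0.0394 and 0.102). Il12a, a subunit of interleukin 12, differed by -0.76 and Lgals3bp, a secreted galectin-binding protein, by -0.98 (adjusted p = 0.0341 and 0.0388). Both were dim with hairpin 97. When normalized together with the Luc arrays, Il12a read 4.61, 4.62 and 4.71 and Lgals3bp 4.65, 4.50 and 4.72 with hairpin 97. Lgals3bp read 4.51, 4.86 and 4.41 with Luc, where it was detected on 0 arrays. The detection filter can favour a difference in such dim genes, so their adjusted p is a description. Of 1774 detected probes without a single gene symbol, 5 were called in a fit of their own.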
